A study of Homo sapiens with 4 samples.

Results

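The interferon regulatory factors (IRFs) and the signal transducers and activators of transcription (STATs) are transcription factor families that carry cytokine and innate immune signals to the nucleus. Of these families 9 genes, IRF1, IRF2, IRF3, IRF7, IRF9, STAT2, STAT3, STAT5A and STAT6, were chosen by name from the 58735 genes in the table. Their transcript levels were measured by RNA-seq in U2OS, an established human osteosarcoma line, in 2 libraries labelled shGREM1, from cells with a knockdown of GREM1, and in 2 libraries labelled shControl, from control cells of the same line. GREM1 codes for gremlin 1, which is secreted and blocks bone morphogenetic proteins. The labels name no further treatment or genotype, no hairpin sequence, and neither the number of clones nor the time of harvest. Whether replicate libraries were separate cultures is not stated either, so the p-values capture no more than the spread between these libraries, which may be technical. The other genes of both families were not analysed here.

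STAT proteins wait in the cytoplasm until a cytokine receptor's Janus kinase (JAK) phosphorylates them, then pair and enter the nucleus. IRF9 joins STAT proteins, STAT2 among them, in the complex that type I interferons activate, while IRF3 and IRF7 are switched on by kinases downstream of sensors for viral nucleic acids and drive interferon genes. IRF1 is itself made in response to interferon gamma and inflammatory cytokines, and IRF2 can occupy the same DNA sites and oppose it. Much of this control acts on the proteins rather than on transcript levels, which are all that was measured here.

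Library totals ran from 15968817 to 16353015 counts in shGREM1 and from 15492826 to 15676556 counts in shControl. GREM1 itself had 1 count in each shGREM1 library, against 2 and 0 counts in the shControl libraries, where the count of 0 had an exact 95% upper limit of 3.69 counts. With so few counts the knockdown could not be checked. In these bulk samples fewer cells of a type and less RNA per cell cannot be told apart. The mesenchymal and osteoblast markers were all detected (6 of 6), but COL1A2 had only 20 and 15 counts in shGREM1 and 8 and 9 in shControl. CPM gives a gene's counts relative to the scaled total of its library, while sums over a marker list use the unscaled total. The summed level of this list was 2650 to 2810 CPM in shGREM1 and 2010 to 2060 CPM in shControl, most of it from SPARC, COL1A1 and VIM. In that list SPARC (log2 fold change 0.51) and COL1A1 (0.50) rose, 0 fell, 4 did not pass, among them VIM (0.10), RUNX2 (0.18) and ALPL (-0.98), and the median was 0.342. Leaving out either shControl library ended both calls, and 1 marker fell without shGREM1-2 or shControl-2. The part of these marker levels in the results was not tested. The 11 immune and endothelial markers summed to 10.3 to 12.5 CPM in shGREM1 and 10.1 to 15 CPM in shControl. Most of that came from PECAM1, HBB was at 0 in every library, and PTPRC, the pan-leukocyte marker, had 10 and 9 counts in shGREM1 and 5 and 9 in shControl. Of the 3 markers in that list with enough counts to test, PECAM1 (-0.18), ITGAM (-0.35) and CSF1R (-0.14), 0 passed, and their median log2 fold change was -0.18.

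The promoters of 6 of the 9 genes were found in the RefSeq table of start-site windows (build GRCh38.p14), which run from 250 bases before a start site to 50 bases after it; IRF2, IRF3 and IRF7 had no entry. Those of IRF1 and IRF9 are shown because each holds a match to the gamma-activated site at which STAT dimers bind, and that of STAT3 because STAT3 had the highest mean level of the STAT genes. Positions are counted from the start site at 0. Each line runs 5′ to 3′ on the gene's strand, in lower case, and capitals mark motif matches.
IRF1 (chr5:132490724-132491023, minus strand): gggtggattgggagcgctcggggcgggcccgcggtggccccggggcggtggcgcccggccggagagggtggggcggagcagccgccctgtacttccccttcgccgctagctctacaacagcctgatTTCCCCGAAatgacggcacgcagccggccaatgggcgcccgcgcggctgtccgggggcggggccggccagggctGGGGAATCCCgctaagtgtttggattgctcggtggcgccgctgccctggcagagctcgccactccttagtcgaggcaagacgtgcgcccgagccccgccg
IRF9 (chr14:24161015-24161314, plus strand): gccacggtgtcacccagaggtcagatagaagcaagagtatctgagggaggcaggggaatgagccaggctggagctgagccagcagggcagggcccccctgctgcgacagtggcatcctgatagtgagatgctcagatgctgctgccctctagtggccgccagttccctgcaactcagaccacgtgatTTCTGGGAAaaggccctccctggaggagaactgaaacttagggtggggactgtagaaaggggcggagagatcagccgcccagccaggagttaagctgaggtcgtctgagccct
STAT3 (chr17:42388393-42388692, minus strand): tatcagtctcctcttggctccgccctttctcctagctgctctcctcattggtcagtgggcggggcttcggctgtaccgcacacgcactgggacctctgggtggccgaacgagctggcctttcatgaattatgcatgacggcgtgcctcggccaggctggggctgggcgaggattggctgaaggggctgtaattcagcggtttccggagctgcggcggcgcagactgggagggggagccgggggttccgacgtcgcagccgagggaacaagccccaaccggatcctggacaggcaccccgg

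Motifs were searched on both strands: the gamma-activated site as TTCNNNGAA, the core of the interferon-stimulated response element as GAAA, any 2 bases and GAAA, and the NF-kB consensus. The IRF1 window held the gamma-activated match TTCCCCGAA at bases -124 to -116 from its start site and the NF-kB match GGGGAATCCC at -50 to -41. The IRF9 window held the gamma-activated match TTCTGGGAA at -63 to -55. The windows of STAT2, STAT3 and STAT6 held none of the 3 motifs, and 1 of 3 STAT5A windows held an NF-kB match. No window of these genes held the response element core. Over all 35116 windows, 7.66% held a gamma-activated match, 3.57% the response element core and 11.3% the NF-kB consensus. G and C made up 73.7% of the IRF1 window, 60.0% of the IRF9 window and 65.3% of the STAT3 window, against a median of 58.7% over all windows. None of the matches overlapped another. A match is a string of letters, and binding was not measured.

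All 9 genes had enough counts to be tested, but their levels differed widely. Per length, as CPM per kilobase of the deposited gene length, the order by mean over the 4 libraries was IRF3 (21.8), STAT3 (20.7), STAT6 (18.1), STAT2 (15.7), IRF2 (7.82), STAT5A (2.58), IRF1 (2.34), IRF9 (1.15) and IRF7 (0.450). The deposited length, 7799 bases for IRF1, need not be that of the transcript expressed here. The order between genes depends on it and is uncertain to that extent. Over all 4 libraries the ranges of neighbours overlapped from IRF3 down to STAT2 and between STAT5A and IRF1, but each of these pairs was separate within 1 group. In shGREM1, IRF3 overlapped STAT3 and STAT6 overlapped STAT2, while STAT3 (21.6 and 23.5) lay above STAT6 (16.7 and 18.8). In shControl, STAT3 overlapped STAT6, while IRF3 (23.0 and 24.2) lay above STAT3 (18.7 and 18.9) and STAT6 (17.6 and 19.2) above STAT2 (14.1 and 15.3). Over all 4 libraries the ranges were separate between STAT2 and IRF2, between IRF2 and STAT5A, between IRF1 and IRF9 and between IRF9 and IRF7. IRF3 lay above 88.3% of the 18442 tested genes in mean level per length, and IRF7 above 11.3%. In shGREM1, IRF1 was at 1.877 and 1.603 per length, below STAT5A at 2.22 and 2.25. In shControl the 2 genes overlapped, with IRF1 at 3.06 and 2.82 and STAT5A at 2.97 and 2.88.

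**Figure D1:**
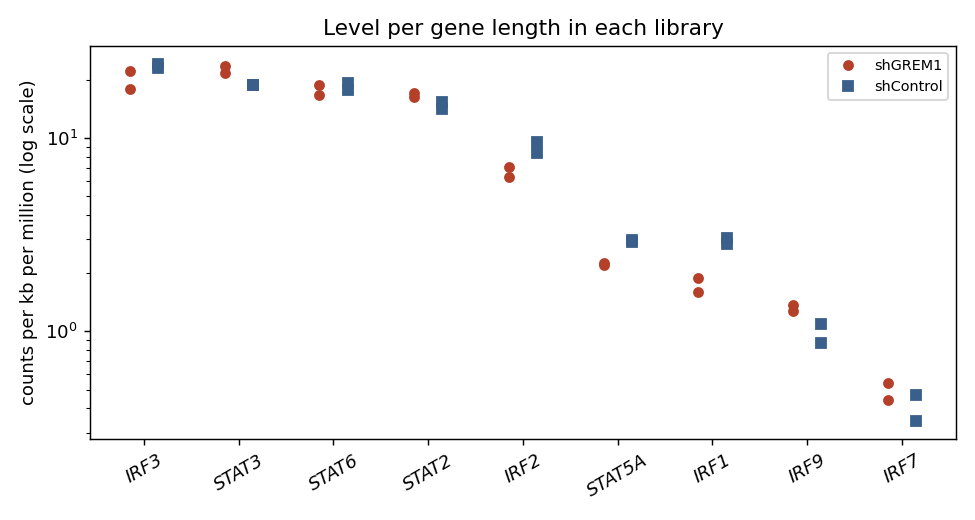
Level of each gene in CPM per kilobase on a log axis, with circles for the 2 shGREM1 libraries and squares for the 2 shControl libraries, ordered by the mean over all 4. IRF3, STAT3, STAT6 and STAT2 lie between 14.1 and 24.2, and IRF7 lies between 0.345 and 0.544.

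The design implies a single comparison, of transcript levels in knockdown and control cells. IRF1 fell in shGREM1, to 0.592 of its shControl level, and was the only one of the 9 genes to pass the test. None of the 9 rose. IRF2, IRF3 and STAT5A were lower and STAT2, STAT3 and IRF9 higher in both shGREM1 libraries than in either shControl library without passing, and IRF7 and STAT6 overlapped between the groups. Genes were called at a Benjamini-Hochberg adjusted p below 0.05 over all tested genes, by edgeR's quasi-likelihood test, which called 7.69% of all 18442 tested genes (3.57% rose and 4.12% fell). A count of 1 call among 9 genes is close to that background. Groups without overlap, found for 7 of the 9, occurred in 53.6% of all tested genes, 27% higher and 26.6% lower. The median log2 fold change (shGREM1 over shControl) of the 9 genes was -0.0555, against 0.00491 for all tested genes, and their median absolute log2 fold change was 0.274, against 0.233.

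**Figure D2:**
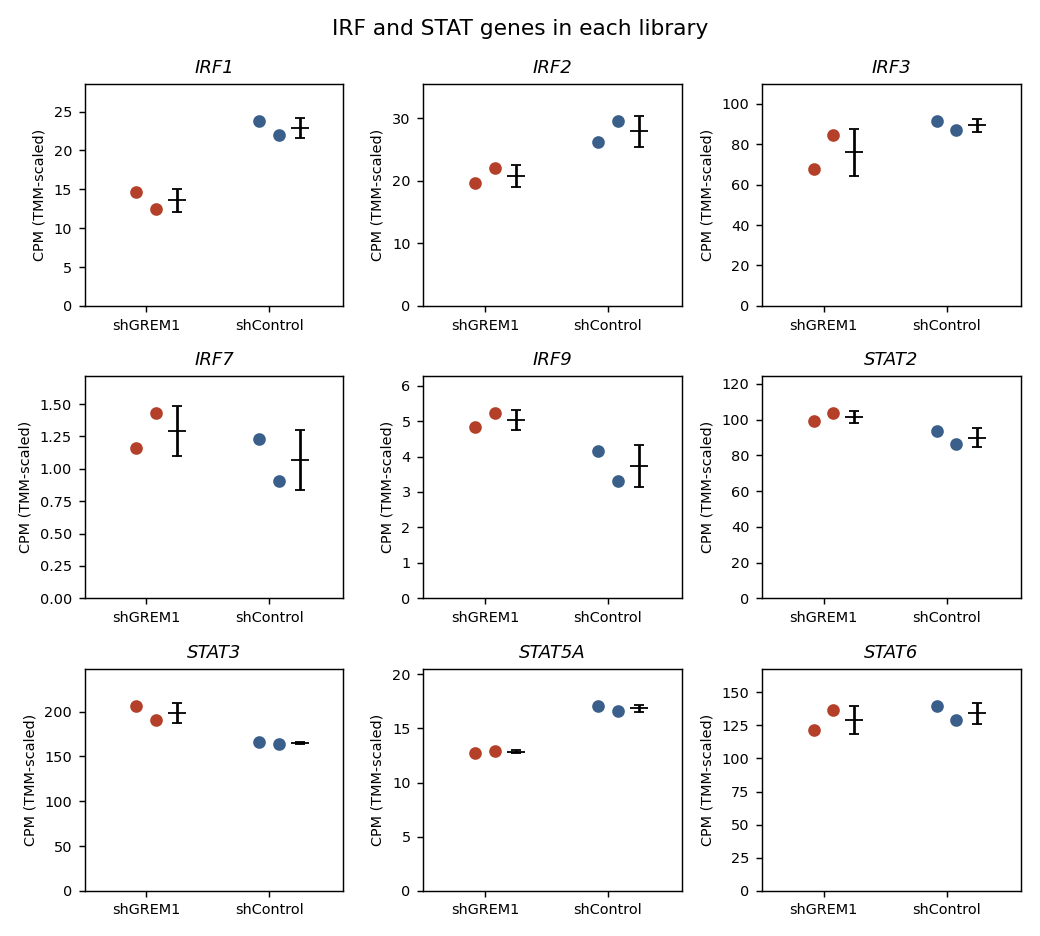
CPM of each gene in each library, with the 2 shGREM1 libraries left of the 2 shControl libraries and black bars for mean and SD (n = 2 each); each panel has its own axis from 0. The IRF1 libraries sit at 14.6 and 12.5 CPM in shGREM1, below 23.8 and 22.0 CPM in shControl, while IRF7 and STAT6 overlap.

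IRF1 (ENSG00000125347, chromosome 5, 132481609 to 132490798, minus strand, GRCh38), an activator of antigen presentation and interferon-inducible genes, had 240 and 201 counts in shGREM1, against 368 and 340 counts in shControl. Scaled for library size, these were 14.6 and 12.5 CPM in shGREM1 and 23.8 and 22.0 CPM in shControl. Both shGREM1 libraries lay below both shControl libraries, and each of the 4 ratios of a shGREM1 to a shControl library fell between 0.524 and 0.665. The mean was 13.6 ± 1.51 CPM in shGREM1 and 22.9 ± 1.28 CPM in shControl (SD, n = 2 each). The log2 fold change was -0.76 ± 0.16 (SE), with a 95% interval from -1.10 to -0.41 and an edgeR adjusted p of 0.0104. In absolute log2 fold change IRF1 exceeded 89.1% of tested genes. It did not pass without shControl-1 (log2 fold change -0.71, edgeR adjusted p = 0.0728). The fold changes of IRF1 and of the other members, with their intervals, are drawn in the plot of log2 fold changes.

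**Figure D3:**
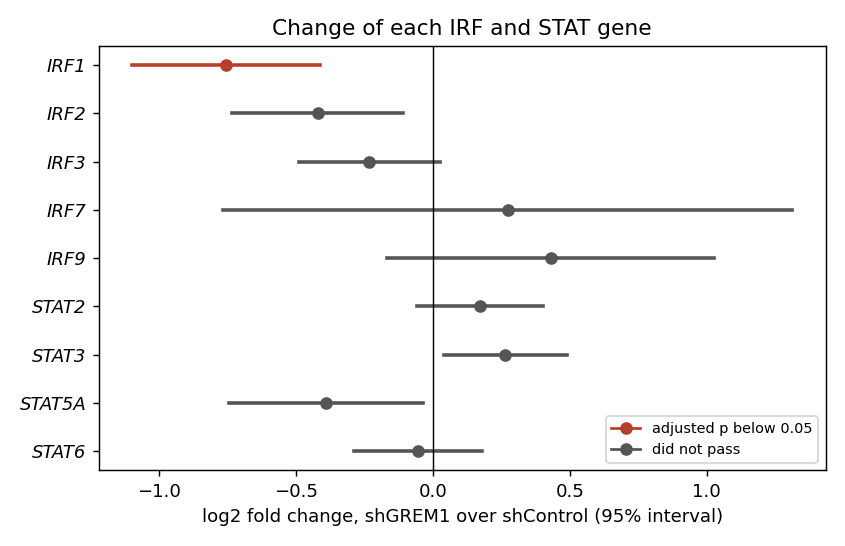
Log2 fold change of each gene, shGREM1 over shControl, as a point with its 95% interval from the edgeR fit, in red where the adjusted p was below 0.05 and grey where it was not. IRF1 lies at -0.76; the interval of IRF7, from -0.77 to 1.31, is the widest of the 9.

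IRF1 overlaps C5orf56, a processed transcript on the opposite strand, by 7094 bases. Because the strand setting of the counting is not given in the sources used here, reads of the pair may not be separable. C5orf56 had 46 and 50 counts in shGREM1 and 67 and 38 in shControl, a mean of 3.18 CPM against 18.2 CPM for IRF1, and its log2 fold change of -0.20 did not pass (edgeR adjusted p = 0.789). AC116366.3, also on the opposite strand, overlaps IRF1 by 9190 bases and had a mean of 0.0324 CPM. Among 10266 other protein-coding genes averaging 10 CPM or more, the profiles over the 4 libraries nearest to that of IRF1, centred on each gene's mean log2 CPM, were those of FAH, a tyrosine-breakdown enzyme gene, MARS2, a mitochondrial methionyl-tRNA synthetase gene, and WNT5A, which encodes a secreted signalling protein. Their root mean square distances from IRF1 were 0.024, 0.0289 and 0.0311 on the log2 scale. FAH, for example, had 31.2 and 27.2 CPM in shGREM1 and 50.3 and 45.6 CPM in shControl. These genes were picked for likeness over 4 libraries, so their fold changes carry no test.

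IRF2 (ENSG00000168310, chromosome 4, 184387713 to 184474580, minus strand), the factor that can oppose IRF1, had 321 and 355 counts in shGREM1, against 404 and 457 in shControl. Its means were 20.8 ± 1.76 CPM in shGREM1 and 27.9 ± 2.43 CPM in shControl (SD, n = 2 each). The groups did not overlap, but the log2 fold change of -0.42 ± 0.15 (SE) did not pass (edgeR adjusted p = 0.0955; 95% interval from -0.73 to -0.11). Without shGREM1-2 its edgeR adjusted p was 0.0491. The genes that overlap IRF2, AC099343.2 and RF00152, had means of 0.411 and 0.0162 CPM. Of the 3 genes listed as IRF2 binding proteins, IRF2BP1 and IRF2BP2 encode corepressors that partner IRF2. None of the 3 passed: IRF2BP1 had 80.0 and 80.1 CPM in shGREM1 and 82.5 and 78.0 CPM in shControl. IRF2BP2 had a log2 fold change of -0.05 and IRF2BPL one of 0.08. IRF2BP1 overlapped between the groups. Of these 3, 0 rose and 0 fell, with a median of -0.0035.

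IRF3 (ENSG00000126456, chromosome 19, 49659569 to 49665875, minus strand), the constitutively made factor behind the first wave of interferon, had 1113 and 1356 counts in shGREM1, against 1415 and 1345 in shControl. In CPM that was 67.9 and 84.3 in shGREM1 and 91.6 and 87.1 in shControl, so the shGREM1 libraries were lower but stood further from each other than the shControl libraries did. The log2 fold change was -0.23 ± 0.12 (SE; edgeR adjusted p = 0.269; 95% interval from -0.49 to 0.03). It was -0.40 without shGREM1-2 (edgeR adjusted p = 0.0396) and -0.08 without shGREM1-1. IRF3 overlaps BCL2L12 on the opposite strand by 734 bases. That gene had a mean of 63.2 CPM, against 82.7 CPM for IRF3, and a log2 fold change of -0.22 without passing. The value of IRF3 is uncertain where their reads could not be separated.

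IRF7 (ENSG00000185507, chromosome 11, 612553 to 615999, minus strand), which amplifies interferon production in infected cells, had the fewest counts of the 9. It had 19 and 23 counts in shGREM1 and 19 and 14 in shControl, with exact 95% Poisson intervals of 11.4 to 29.7 and 14.6 to 34.5 counts in shGREM1 and 11.4 to 29.7 and 7.65 to 23.5 counts in shControl; such intervals hold counting error alone. The groups overlapped, and the log2 fold change of 0.27 ± 0.49 (SE) did not pass (edgeR adjusted p = 0.798; 95% interval from -0.77 to 1.31). The estimate for IRF1, -0.76, lies just inside that interval, which therefore does not exclude a fall of that size in IRF7.

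IRF9 (ENSG00000213928, chromosome 14, 24161053 to 24166565, plus strand), the DNA-binding subunit of the interferon-activated complex, had 79 and 84 counts in shGREM1 and 64 and 51 in shControl. Both shGREM1 libraries were higher, at a mean of 5.02 ± 0.286 CPM against 3.72 ± 0.595 CPM in shControl (SD, n = 2 each), but the log2 fold change of 0.43 ± 0.28 (SE) did not pass (edgeR adjusted p = 0.393; 95% interval from -0.17 to 1.03). IRF9 lies inside AL136295.5, a gene on the same strand with a mean of 0.645 CPM and a log2 fold change of 0.14. Strand cannot separate reads from the bases that both genes share, so the value of IRF9 is uncertain. STAT2 (ENSG00000170581, chromosome 12, 56341597 to 56360155, minus strand), the partner of IRF9, had 1625 and 1667 counts in shGREM1 and 1447 and 1331 in shControl. That was 99.1 and 104 CPM in shGREM1 and 93.7 and 86.2 CPM in shControl, again higher without overlap, with a log2 fold change of 0.17 ± 0.11 (SE, 95% interval from -0.06 to 0.40; edgeR adjusted p = 0.371). RNU7-40P, which lies in STAT2, had a mean of 0.0635 CPM.

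STAT3 (ENSG00000168610, chromosome 17, 42313324 to 42388568, minus strand), the main effector of cytokines that signal through the receptor chain gp130, had 3389 and 3064 counts in shGREM1 and 2567 and 2539 in shControl. Its means were 199 ± 11.5 CPM in shGREM1 and 165 ± 1.26 CPM in shControl (SD, n = 2 each), and every ratio of a shGREM1 to a shControl library lay between 1.15 and 1.26. The log2 fold change of 0.26 ± 0.11 (SE) did not pass (edgeR adjusted p = 0.143; 95% interval from 0.04 to 0.49). STAT5A (ENSG00000126561, chromosome 17, 42287547 to 42311943, plus strand), an effector of growth hormone and prolactin, ends 1.38 kb from the end of STAT3 on the opposite strand and differed in the other direction. It had 209 and 208 counts in shGREM1 and 264 and 256 in shControl, means of 12.8 ± 0.130 CPM in shGREM1 and 16.8 ± 0.365 CPM in shControl (SD, n = 2 each), and a log2 fold change of -0.39 ± 0.17 (SE) that did not pass (edgeR adjusted p = 0.170; 95% interval from -0.75 to -0.04). The libraries of each group were close together, and the groups did not overlap. STAT5A has a near-identical paralog, so its value is uncertain where reads could be split.

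STAT6 (ENSG00000166888, chromosome 12, 57095408 to 57132139, minus strand), the effector of interleukins 4 and 13, had 1994 and 2201 counts in shGREM1 and 2160 and 1987 in shControl, and the groups overlapped. Its log2 fold change was -0.06 ± 0.11 (SE; edgeR adjusted p = 0.822), with a 95% interval from -0.29 to 0.18. STAT6 overlaps LRP1 by 3647 bases and NAB2 by 69 bases, both on the opposite strand. LRP1, at a mean of 766 CPM, was more abundant than STAT6 at 132 CPM and had a log2 fold change of 0.30 without passing, so the value of STAT6 is uncertain where their reads could not be separated.

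Genes upstream and downstream of these factors were taken from lists, and each list's counts stand against 3.57% risen, 4.12% fallen and a median log2 fold change of 0.00491 over all tested genes. Calls were more frequent among abundant genes. With a mean CPM filter of 5, 11.3% of 12404 genes were called (708 rose and 688 fell), against 7.69% in the main fit. The shares over all tested genes are therefore a low background for lists of abundant genes. Several ligand and receptor genes fell. Most interferon genes had no or few reads: IFNA1, IFNB1, IFNL2 and IFNL3 were at 0 in all 4 libraries, and no listed interferon gene exceeded 5 counts in a library. Of the 19 listed ligands, interferons and cytokines, 5 were tested and 2 fell, with a list median of -0.139. LIF, a gp130 ligand, had 78.6 and 68.1 CPM in shGREM1 and 126 and 113 CPM in shControl (log2 fold change -0.70 ± 0.12, SE; edgeR adjusted p = 0.00185). IL11, another, had 16.2 and 13.6 CPM in shGREM1 and 23.8 and 24.0 CPM in shControl (-0.68 ± 0.16; edgeR adjusted p = 0.0165). The ligand genes CLCF1 (-0.14), CTF1 (0.42) and CNTF (0.26) did not pass. Without shControl-1 or shControl-2, IL11 did not pass (edgeR adjusted p = 0.0681 and 0.0657) and 1 ligand gene fell.

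Of 19 tested cytokine receptor genes, 4 fell, 0 rose and 15 did not pass, with a median of -0.0911. IL7R, the interleukin 7 receptor gene, fell to 35.6 ± 7.27 CPM in shGREM1, against 84.7 ± 7.36 CPM in shControl (SD, n = 2 each). On the log2 scale IL7R fell by 1.25 (edgeR adjusted p = 0.000115). IL4R, the receptor gene upstream of STAT6, had 15.8 and 14.9 CPM in shGREM1 and 25.9 and 28.4 CPM in shControl (-0.82; edgeR adjusted p = 0.00361). IL6ST, which encodes gp130, had 140 and 124 CPM in shGREM1 and 170 and 199 CPM in shControl (-0.48; edgeR adjusted p = 0.0194). IFNGR1, the ligand-binding chain of the interferon gamma receptor, fell as well (-0.45; edgeR adjusted p = 0.0371). OSMR (-0.19), LIFR (-0.20) and IL13RA1 (0.11) did not pass. Without shControl-2, IL6ST (edgeR adjusted p = 0.169) and IFNGR1 (0.190) did not pass and 2 of the receptors fell. IFNGR1 also did not pass without shControl-1 (0.0886), without shGREM1-2 (0.0766), with upper-quartile scaling (0.0504) or with DESeq2 (0.0674).

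All 4 JAK genes were tested and 0 passed, with a median of -0.119. JAK1, used by most of these receptors, had 158 and 147 CPM in shGREM1 and 169 and 175 CPM in shControl (log2 fold change -0.17), TYK2 had a log2 fold change of -0.17 and JAK2 one of -0.07. JAK3, named here after its values were seen, had 11.2 and 10.6 CPM in shGREM1 and 5.96 and 7.38 CPM in shControl (0.70; edgeR adjusted p = 0.0594), and rose in the fits with upper-quartile scaling, with no count filter, with a mean CPM filter of 5, with a replicate block and without shGREM1-2. Of 16 tested negative regulators of JAK-STAT signalling, 1 fell, 0 rose and the median was -0.0813. The 1 was PTPN1, a phosphatase of JAKs, at 98.0 and 83.9 CPM in shGREM1 and 123 and 117 CPM in shControl (-0.40; edgeR adjusted p = 0.0406). PTPN1 did not pass with upper-quartile scaling (edgeR adjusted p = 0.0556), without shGREM1-2 (0.149), with shControl-1 left out (0.195) or with shControl-2 left out (0.0818). Of this list 2 genes fell without shGREM1-1 and 0 without shControl-2. PTPN11 (0.20), SOCS4 (-0.03) and SOCS5 (-0.40) did not pass.

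Among 17 tested sensors, adaptors and kinases upstream of IRF3 and IRF7, 3 fell, 0 rose and 14 did not pass, with a median of -0.0164. TMEM173, the STING gene, which relays the sensing of cytosolic DNA, had 116 and 94 counts in shGREM1 and 243 and 218 in shControl, or 6.46 ± 0.871 CPM in shGREM1 against 14.9 ± 1.14 CPM in shControl (SD, n = 2 each). Its log2 fold change was -1.21 ± 0.20 (SE), at an edgeR adjusted p of 0.00207. Both shGREM1 libraries were below both shControl libraries. IKBKE, a kinase gene that acts on IRF3 and IRF7, had 14.3 and 12.8 CPM in shGREM1 and 20.6 and 23.1 CPM in shControl (-0.69; edgeR adjusted p = 0.0176). TRIM25, a ubiquitin ligase gene of RNA sensing, had 99.0 and 90.0 CPM in shGREM1 and 121 and 140 CPM in shControl (-0.47; edgeR adjusted p = 0.0207). TRIM25 overlaps DGKE (26.7 CPM) and C17orf67 (11 CPM), so the value of TRIM25 is uncertain where their reads could not be separated. MAVS, the adaptor for RNA sensors, had a log2 fold change of 0.06 and did not pass, nor did IRAK1 (-0.18) and TRAF3 (0.16). Without shControl-2, IKBKE (edgeR adjusted p = 0.131) and TRIM25 (0.174) did not pass and 1 gene of the list fell.

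Of 41 tested interferon-stimulated genes, 4 fell, 1 rose and 36 did not pass, and 30 were below 0. The list median was -0.21 on the log2 scale. With no count filter or with a replicate block 6 of the list fell, against 3 with upper-quartile scaling or DESeq2, and 1 rose in each. SAMD9, an antiviral and growth-restraining gene, rose to 44.3 and 43.4 CPM in shGREM1, against 24.5 and 28.3 CPM in shControl (0.73 ± 0.13, SE; edgeR adjusted p = 0.00312). BST2, the tetherin gene, had 30 and 21 counts in shGREM1 and 56 and 81 in shControl (-1.50; edgeR adjusted p = 0.0191), and IFITM3 (-0.42), TRIM22 (-0.46) and TRIM14 (-0.49) fell too. IFITM3 has near-identical neighbours, TRIM22 overlaps TRIM5 (55.0 CPM) and TRIM14 overlaps the more abundant NANS (40.2 CPM), so these 3 values are uncertain. The abundant ADAR (0.18), PARP14 (0.00) and EIF2AK2 (0.08) did not pass. Only 1 of the list fell without shControl-1, and likewise 1 without shControl-2, where BST2 had an edgeR adjusted p of 0.152. IFITM3 and TRIM14 lost their calls without any 1 of shGREM1-2, shControl-1 and shControl-2, and TRIM22 without any 1 of shGREM1-1, shControl-1 and shControl-2.

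Among the 18 tested targets of interferon gamma and IRF1 that are reported here, 3 fell and 15 did not pass, and 17 lay below 0 with a median of -0.289; the list is not complete, so these values do not describe all of its genes. CASP1, the inflammatory caspase gene, had 31 and 47 counts in shGREM1 and 151 and 184 in shControl, or 2.41 ± 0.729 CPM in shGREM1 against 10.8 ± 1.51 CPM in shControl (SD, n = 2 each). Its log2 fold change was -2.17 ± 0.28 (SE), at an edgeR adjusted p of 0.000239. The guanylate-binding protein genes GBP1 (3.05 and 2.55 CPM in shGREM1, 7.97 and 6.28 CPM in shControl) and GBP2 (164 and 141 counts in shGREM1, 209 and 268 counts in shControl) fell, and belong to a family of similar sequence. B2M, the light chain of MHC class I, had 639 and 653 CPM in shGREM1 and 630 and 692 CPM in shControl (log2 fold change -0.03) and did not pass, nor did TAPBP (-0.20) and PSME1 (-0.02). GBP1 did not pass without shControl-1 (edgeR adjusted p = 0.0756), nor GBP2 without shControl-2 (0.283), without shGREM1-2 (0.0505) or with DESeq2 (0.0632). In the list 6 genes fell without shGREM1-1, and 2 fell without shControl-1 or shControl-2.

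Of 18 tested STAT3 targets, 6 fell, 0 rose and 12 did not pass, and 14 lay below 0 with a median of -0.364. With no count filter 8 of the list fell and 1 rose, and with a replicate block 9 fell and 1 rose. JUNB, an AP-1 subunit gene, had 87.7 and 79.3 CPM in shGREM1 and 136 and 144 CPM in shControl (log2 fold change -0.74 ± 0.11, SE; edgeR adjusted p = 0.000889). CEBPB, a transcription factor gene of the acute-phase response, had 291 and 273 CPM in shGREM1 and 403 and 474 CPM in shControl (-0.64; edgeR adjusted p = 0.00309). The survival genes BCL2L1 (-0.44) and MCL1 (-0.45), the stress-response gene IER3 (-0.49) and SBNO2 (-0.43), a corepressor gene, fell as well. JUNB lies inside HOOK2 (53.3 CPM), so the value of JUNB is uncertain where their reads could not be separated. TIMP1 (-0.46), HIF1A (-0.11) and OSMR did not pass. Without shControl-2, 3 of the list fell, with MCL1 (edgeR adjusted p = 0.155), IER3 (0.142), SBNO2 (0.136) and BCL2L1 (0.0962) not passing. Without shControl-1, 4 fell, and BCL2L1 (0.101), MCL1 (0.0700) and SBNO2 (0.0612) did not pass.

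The target lists of the other STAT factors were short. Of 6 tested STAT5 targets, CCND2, the cyclin D2 gene, fell to 289 and 327 CPM in shGREM1, against 398 and 480 CPM in shControl (log2 fold change -0.51; edgeR adjusted p = 0.0172), 0 rose and the list median was -0.132. CISH, a feedback inhibitor of STAT5, had 46 and 21 counts in shGREM1 and 84 and 50 in shControl without passing (-1.07; edgeR adjusted p = 0.117), nor did PIM1 (0.13) or BCL6 (-0.19). CCND2 did not pass without shControl-2 (edgeR adjusted p = 0.199), where 0 of the list fell, and 2 fell without shGREM1-1. Of 4 tested STAT6 targets, IL4R, described among the receptors, and TGM2, the tissue transglutaminase gene (81.9 and 69.3 CPM in shGREM1, 113 and 111 CPM in shControl; -0.57; edgeR adjusted p = 0.00717), fell, 0 rose, CCL26 (0.19) and FCER2 (0.63) did not pass, and the median was -0.191. TGM2 overlaps RPRD1B (50.7 CPM) by 394 bases, so the value of TGM2 is uncertain where their reads could not be separated. The plot of pathway lists sets the tested list genes reported here beside the 9 factors.

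**Figure D4:**
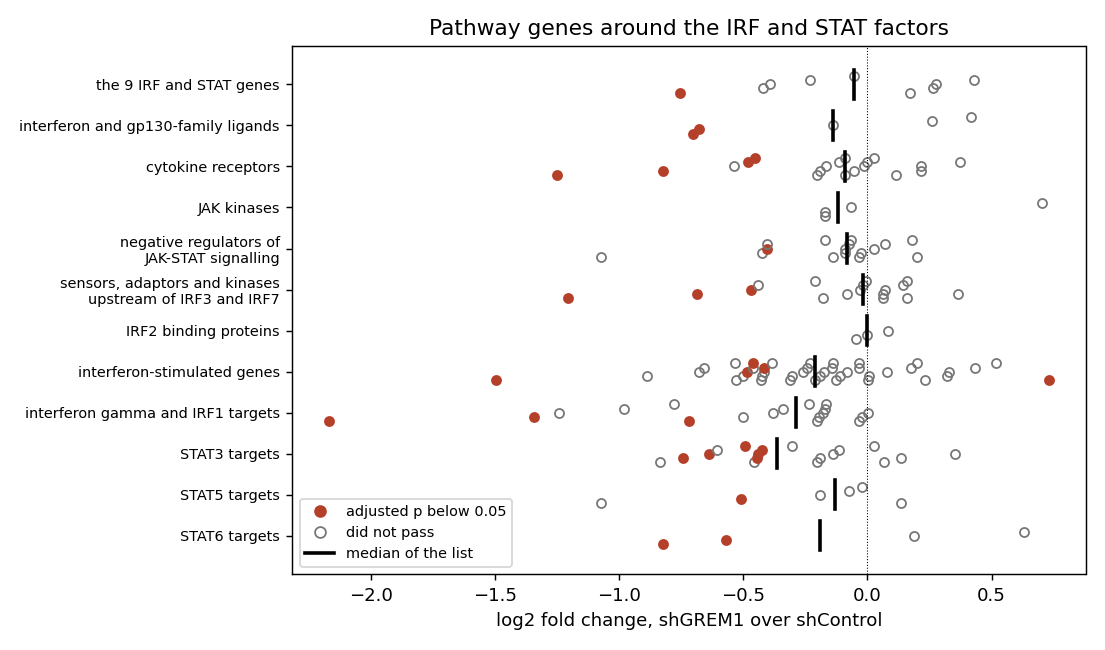
Log2 fold change, shGREM1 over shControl, of every tested gene reported here in each list, with filled red circles for an adjusted p below 0.05, open circles for genes that did not pass and a black bar at the list median. The IRF and STAT genes lie between -0.76 and 0.43, while CASP1, at -2.17, is the lowest point of the lists drawn.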

How the data were processed

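The authors deposited raw read counts per gene for 4 libraries. HISAT2 2.0.5, StringTie 1.3.3b and, with no version, DESeq2 appear in the submitters' processing notes. Neither the counting program nor its strand setting is given in the sources used here. The notes name a mouse build, but all 58735 genes matched GENCODE 29 (human, GRCh38) in identifier, start, end and strand. The deposited column names SHG11 and SHG12 were taken as shGREM1-1 and shGREM1-2, and NC1 and NC2 as shControl-1 and shControl-2, by abbreviation alone.

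The test was edgeR 4.0.16 in R 4.3.3. The filterByExpr rule, with a minimum count of 10 and a minimum total of 15, left 18442 genes, scaled by TMM. A quasi-likelihood model of the group was fitted with robust estimation, and p-values were Benjamini-Hochberg adjusted over all kept genes. SEs were derived from the F statistic, and 95% intervals use them with the fit's degrees of freedom. DESeq2 1.42.0, limma-voom (limma 3.58.1), other scalings and filters, a replicate block and leaving out each library were alternatives. The fit was also run on simulated counts with 200 changed genes, but the share recovered is not reported here. That run therefore says nothing here about the power to find small changes. CPM values are scaled by TMM, except the sums over the marker lists, and levels per length use the deposited gene length. MB21D1 was matched to the table as CGAS through RefSeq synonyms. Python 3.11.15 with matplotlib 3.10.9 drew the figures.

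The 9 genes and the pathway lists were chosen with earlier results of these data known. From the list of interferon gamma and IRF1 targets, 1 gene is not reported here, and its list's counts, median and plot leave it out after its value was seen. By rule the text names the 9 genes and the genes that overlap them, GREM1, the 3 profiles nearest to IRF1, and from each list the genes that passed (at most 8) and up to 3 of the most abundant that did not. JAK3, PTPRC, HBB, the interferon genes and the genes that overlap a list gene (DGKE, C17orf67, TRIM5, NANS, HOOK2 and RPRD1B) fall outside that rule and were added after their values were seen.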

Additional observations from a re-analysis of the deposited data

How the results depend on the processing

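Across the 9 genes, 60 of 60 values under other scalings, filters, tools or a replicate block kept their side of the threshold; IRF7 and IRF9 had no value under the mean CPM filter of 5, and DESeq2 gave IRF7 no adjusted p. IRF1 fell in all of these, with an edgeR adjusted p of 0.00042 with the replicate block and 0.0122 with upper-quartile scaling. When single libraries were left out, the number of the 9 genes that fell ran from 0 (without shControl-1) to 3 (without shGREM1-2, where IRF1, IRF2 and IRF3 passed), and 0 rose. STAT6, which passed in none, had a log2 fold change of 0.03 without shGREM1-1. These fits lend a single library the spread of the other group. Over all genes, calls ran from 266 higher and 382 lower genes to 998 higher and 1112 lower when single libraries were left out; with no count filter 1142 genes fell. With the replicate block 1101 rose and 1273 fell; the labels do not say that equal numbers mark pairs, and deviations of same-numbered libraries had a correlation of -0.00703 across genes, which are not independent replicates. The block moved the lists' fallen genes to 3 negative regulators, 6 interferon-stimulated genes, 6 interferon gamma and IRF1 targets, 9 STAT3 targets and 2 STAT5 targets. With it 1 STAT3 target rose, against 0 in the main fit. Upper-quartile scaling made 55.7% of calls higher, against 46.5% with TMM. Of 194 such values for the other named genes that passed, 6 lost the call, in 4 genes (IFNGR1, PTPN1, TRIM14 and GBP2), and of 112 values with a library left out 36 did, in 19 genes; none changed direction. The cause was not tested. Depth limits IRF7 most, at 14 to 23 counts a library.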
